A study of Mus musculus with 39 samples.

Results

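The insulin-like growth factor (IGF) binding proteins, encoded by the genes Igfbp1 to Igfbp7, were followed in 4 tissues of Prf1-/- mice. The members are all genes with these symbols, and the rule uses no measured value. They are 7 of the 24537 genes counted in kidney, liver and lung and 7 of the 52508 rows counted in skin. Prf1 encodes perforin, the pore-forming protein of cytotoxic lymphocytes, and its deletion on the C57BL/6 background was carried by every group described here, while wild-type mice were not analysed here. Young mice were 3 months old and untreated. Old mice were 20 months old and had received ABT-737, an inhibitor of anti-apoptotic BCL-2 family proteins that is used to kill senescent cells, at 25 mg/kg, or vehicle alone, from the age of 18 months, on 2 days in a row in each of 2 months. All were male. RNA from the whole tissue was sequenced from the 3′ ends of transcripts in 39 libraries. Each tissue had 4 young, 3 vehicle-treated and 3 ABT-737-treated libraries, except skin, which had 3 of each. The old groups carry the replicate numbers 3, 4 and 5. The depth, as total counts per library, was lowest in liver (223957 to 891116), while kidney had 1431814 to 3513311, lung 1046508 to 2600092 and skin 1493411 to 3842808. Because only old mice received injections, age and injection cannot be told apart in the comparison of vehicle-treated with young mice. The labels do not say which tissues came from the same mouse.

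IGF1 and IGF2 are small growth-promoting hormones that act through the IGF1 receptor. In blood and tissue fluid nearly all IGF is held by the binding proteins, which prolong its life, carry it and keep it from the receptor until they are cleaved by proteases. Igfbp1 to Igfbp6 encode the proteins that bind IGFs with high affinity, whereas the Igfbp7 product is a related secreted protein of the vessel wall and matrix with low affinity for IGFs. Several of these proteins are also secreted by senescent cells. The liver is the main source of circulating IGF1 and, under the control of insulin and glucocorticoids, of IGFBP1.

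The genes lie in pairs and singly on the mouse genome (GRCm38 coordinates). Igfbp1 (NM_008341, chr11:7197787-7202546, plus strand) and Igfbp3 (NM_008343, chr11:7206091-7213923, minus strand) face each other with their 3′ ends 3544 bases apart. Igfbp2 (NM_008342, chr1:72824480-72852471, plus strand) and Igfbp5 (NM_010518, chr1:72858065-72874865, minus strand) face each other in the same way, 5593 bases apart. Igfbp4 (NM_010517) lies on chr11:99041260-99052643, Igfbp6 (NM_008344) on chr15:102144186-102149512, both on the plus strand, and Igfbp7 (NM_008048) on chr5:77349240-77408045 on the minus strand. In the skin table all 7 transcripts ran 2000 bases past their annotated 3′ end, so that there the counted spans of Igfbp1 and Igfbp3 overlapped by 461 bases on opposite strands, and that of Igfbp6 overlapped Soat2 on the same strand by 986 bases. The span of Igfbp7 overlapped Polr2b on the opposite strand by 85 bases in the first table and by 2077 bases in the skin table, and the antisense gene Gm34648 overlaps it over 7085 bases. These overlaps are of whole spans, introns included, and the part of them in exons was not determined. The Igfbp7 transcript of the first table has 1113 bases. Whether strand was used in counting is not given in the sources used here, so reads from exons shared with partners on the opposite strand cannot be told apart. For Soat2, on the same strand, strand would not separate them.

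The promoters of 6 members are shown because their transcripts passed the test between vehicle-treated old and young mice, in liver (Igfbp1 and Igfbp3), lung (Igfbp3), kidney (Igfbp6) or skin (Igfbp2, Igfbp4 and Igfbp7). Each sequence is the 250 bases before the transcript start in RefSeq on GRCm38.p6, written 5′ to 3′ on the strand of the gene. That of Igfbp4 lies slightly upstream of the span counted in kidney, liver and lung, and ends directly before the span counted in skin. The searched motifs are in capitals. They were CAAAACA, the core of the insulin response element, TGTTTAC, a forkhead factor core, TATAAA, the TATA box, and GGGCGG, the GC box, and both strands were read.
Igfbp1 (chr11:7197537-7197786, plus strand): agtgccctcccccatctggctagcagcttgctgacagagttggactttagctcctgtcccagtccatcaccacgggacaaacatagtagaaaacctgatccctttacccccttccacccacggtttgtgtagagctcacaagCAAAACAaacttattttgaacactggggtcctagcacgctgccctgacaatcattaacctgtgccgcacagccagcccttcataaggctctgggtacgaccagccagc
Igfbp3 (chr11:7213924-7214173, minus strand): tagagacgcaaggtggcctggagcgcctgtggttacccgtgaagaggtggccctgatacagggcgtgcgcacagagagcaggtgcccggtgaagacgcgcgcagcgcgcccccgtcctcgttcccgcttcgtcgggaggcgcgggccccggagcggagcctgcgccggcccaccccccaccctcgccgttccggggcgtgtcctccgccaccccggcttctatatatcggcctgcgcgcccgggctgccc
Igfbp2 (chr1:72824230-72824479, plus strand): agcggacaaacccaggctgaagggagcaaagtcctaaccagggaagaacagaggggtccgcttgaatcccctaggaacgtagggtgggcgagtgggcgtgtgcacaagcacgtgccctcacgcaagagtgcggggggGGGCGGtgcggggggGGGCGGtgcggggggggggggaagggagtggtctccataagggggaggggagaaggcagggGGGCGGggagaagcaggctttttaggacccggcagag
Igfbp4 (chr11:99040994-99041243, plus strand): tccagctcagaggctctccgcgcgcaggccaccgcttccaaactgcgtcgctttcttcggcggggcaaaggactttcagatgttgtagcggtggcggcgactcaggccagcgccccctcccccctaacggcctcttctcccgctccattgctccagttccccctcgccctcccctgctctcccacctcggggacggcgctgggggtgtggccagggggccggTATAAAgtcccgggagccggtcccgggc
Igfbp6 (chr15:102143936-102144185, plus strand): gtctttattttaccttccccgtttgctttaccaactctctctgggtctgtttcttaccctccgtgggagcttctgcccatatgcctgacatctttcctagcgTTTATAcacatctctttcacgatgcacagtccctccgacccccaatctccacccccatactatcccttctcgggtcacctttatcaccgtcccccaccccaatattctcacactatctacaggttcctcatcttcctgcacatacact
Igfbp7 (chr5:77408046-77408295, minus strand): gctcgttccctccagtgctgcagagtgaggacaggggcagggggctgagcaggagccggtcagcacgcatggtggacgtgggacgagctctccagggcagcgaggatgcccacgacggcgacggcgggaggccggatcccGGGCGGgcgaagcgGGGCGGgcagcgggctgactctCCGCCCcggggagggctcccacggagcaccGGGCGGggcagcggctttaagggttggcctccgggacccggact

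The Igfbp1 promoter held 1 match to CAAAACA, from 108 to 102 bases before the start, and 53.2% of its bases were G or C. CAAAACA was found in 5.56% of 32851 promoters of the same length. The Igfbp3 promoter held no match to the 4 motifs and was 73.2% G or C. Among the skin members, the Igfbp2 promoter held 3 GC boxes and the Igfbp7 promoter 4, of which 1 was on the opposite strand (CCGCCC), and the Igfbp4 promoter held a TATA box from 28 to 23 bases before the start. RefSeq gives Igfbp2 another start, whose window (chr1:72825137-72825386) holds the start of the transcript counted in skin and has no match to the motifs. GGGCGG was found in 32.7% of promoters and TATAAA in 12.4%. TGTTTAC, found in 3.17% of promoters, was in none of the members' windows. The Igfbp6 promoter held TATAAA on the opposite strand only (TTTATA), from 148 to 143 bases before the start, and that of Igfbp5, not shown, had no match. No 2 of these matches overlapped, and the matches are descriptions of sequence, not of binding.

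In young mice the members divided the tissues between them. Levels here are CPM, counts divided by library size and brought to the same standard total, after scaling kidney, liver and lung together, and are given as mean ± SD over 4 libraries. Igfbp1, an insulin-suppressed binding protein, stood at 89.3 ± 41.5 CPM in liver and 10.1 ± 2.42 CPM in kidney. In lung it was at 0 counts in 9 of all 10 libraries, with a limit of 3 counts that corresponds to 1.12 to 3.16 CPM when lung is scaled alone, and young replicate 1 had 6 counts. Igfbp2, a binding protein abundant in fetal serum, was at 1561 ± 259 CPM in liver, 176 ± 34.1 CPM in lung and 16.3 ± 2.65 CPM in kidney. Igfbp4, an inhibitory binding protein that is cleaved by the protease PAPP-A, was also highest in liver, at 2414 ± 317 CPM, followed by kidney at 1185 ± 124 CPM and lung at 265 ± 33.2 CPM. These 3 were thus the liver-weighted members in young mice.

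Igfbp3, which carries most circulating IGF in a complex with the acid-labile subunit, was highest in kidney at 326 ± 37.2 CPM, lower in lung at 75.5 ± 10.4 CPM and lowest in liver at 21.4 ± 7.10 CPM. Igfbp7 had the same order, with 3407 ± 375 CPM in kidney, 1287 ± 128 CPM in lung and 375 ± 66.0 CPM in liver. Igfbp6, which prefers IGF2, was highest in lung among kidney, liver and lung, with 432 ± 54.5 CPM there against 7.29 ± 0.610 CPM in kidney and 5.66 ± 3.38 CPM in liver. Igfbp5, a matrix-bound member, was at 272 ± 51.3 CPM in lung and 228 ± 7.23 CPM in kidney, and at 8.57 ± 3.02 CPM in liver.

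Tested with edgeR's quasi-likelihood model, 6 members differed between liver and kidney, where 51.5% of all genes tested passed the same threshold, an adjusted p under 0.05. Between lung and kidney 6 members passed, against 74.7% of all genes, and between lung and liver all 7 passed, against 69.4%. Since most genes passed, these counts say little of the members, which are described by the size of their differences. The log2 difference of liver from kidney was 6.59 for Igfbp2 and -4.69 for Igfbp5, the ends of the range. That of lung from kidney was 5.88 for Igfbp6. The neighbours in these orders that did not separate were Igfbp6 in liver and kidney (-0.31 ± 0.43, adjusted p = 0.602) and Igfbp5 in lung and kidney (0.25 ± 0.13, adjusted p = 0.0948). Both depended on scaling. With total counts in place of trimmed means (TMM), which shifted the median gene by -0.67 between liver and kidney, Igfbp6 passed at -0.98, and with DESeq2's size factors, which shifted the median gene by 0.18 between lung and kidney, Igfbp5 passed at 0.43.

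**Figure D1:**
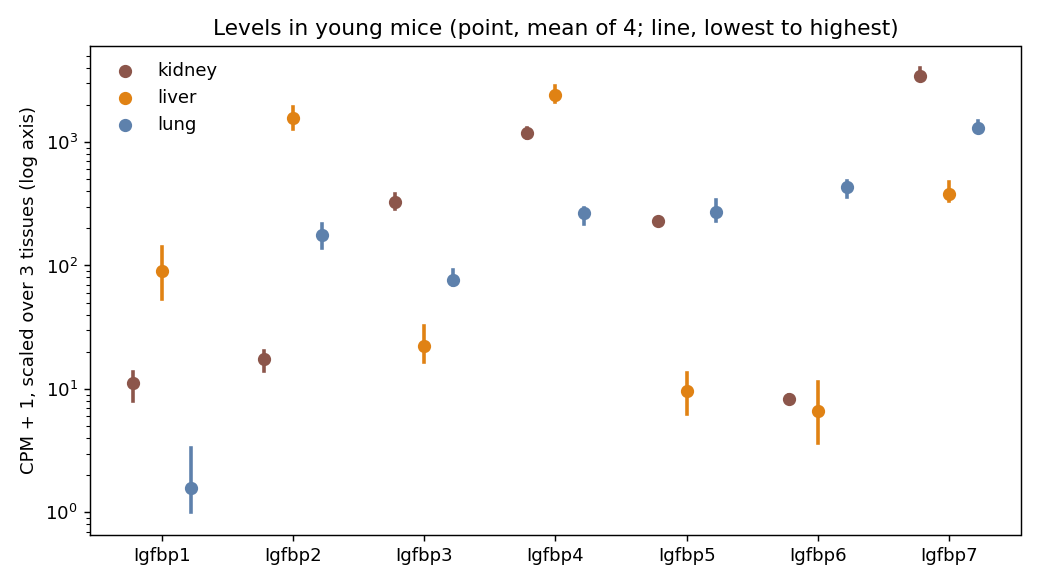
Level of each member in young kidney, liver and lung, as CPM + 1 on a log axis after joint scaling. Points are means of 4 libraries and lines run from the lowest to the highest library. Igfbp1, Igfbp2 and Igfbp4 are highest in liver, Igfbp3 and Igfbp7 in kidney, and Igfbp6 in lung.

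The members were ranked within a tissue by CPM and by CPM per kilobase of the length in the table, as means over all libraries of the tissue. Counts of 3′ ends need not scale with length, and the skin lengths include the 2000 bases past the annotated ends. Igfbp7 led in kidney with 3549.5 CPM per kilobase (3951 CPM), in lung with 1232 (1371 CPM) and in skin with 131 (417 CPM). Igfbp4 led in liver with 942 CPM per kilobase, followed by Igfbp2 with 778. The full order per kilobase was Igfbp7, 4, 3, 5, 2, 1 and 6 in kidney, and Igfbp4, 2, 7, 1, 3, 6 and 5 in liver. In lung it was Igfbp7, 6, 2, 4, 5, 3 and 1, and in skin Igfbp7, 6, 3, 4, 2, 5 and 1. Without division by length, Igfbp5 moved up from place 6 to place 2 in skin, as the member with the longest transcript, and the leading member of each tissue was the same on both scales. Within groups the leader differed in some cases. In young skin Igfbp3 led with 294 CPM (66.6 per kilobase), against 189 CPM (23.7) for Igfbp5 and 168 CPM (52.7) for Igfbp7, which led in both old groups. In young liver Igfbp4 led by CPM, but Igfbp2 had 853 CPM per kilobase against 846 for Igfbp4. No test was made between genes. Skin was counted on other transcripts and its levels are not set beside those of the other tissues.

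**Figure D2:**
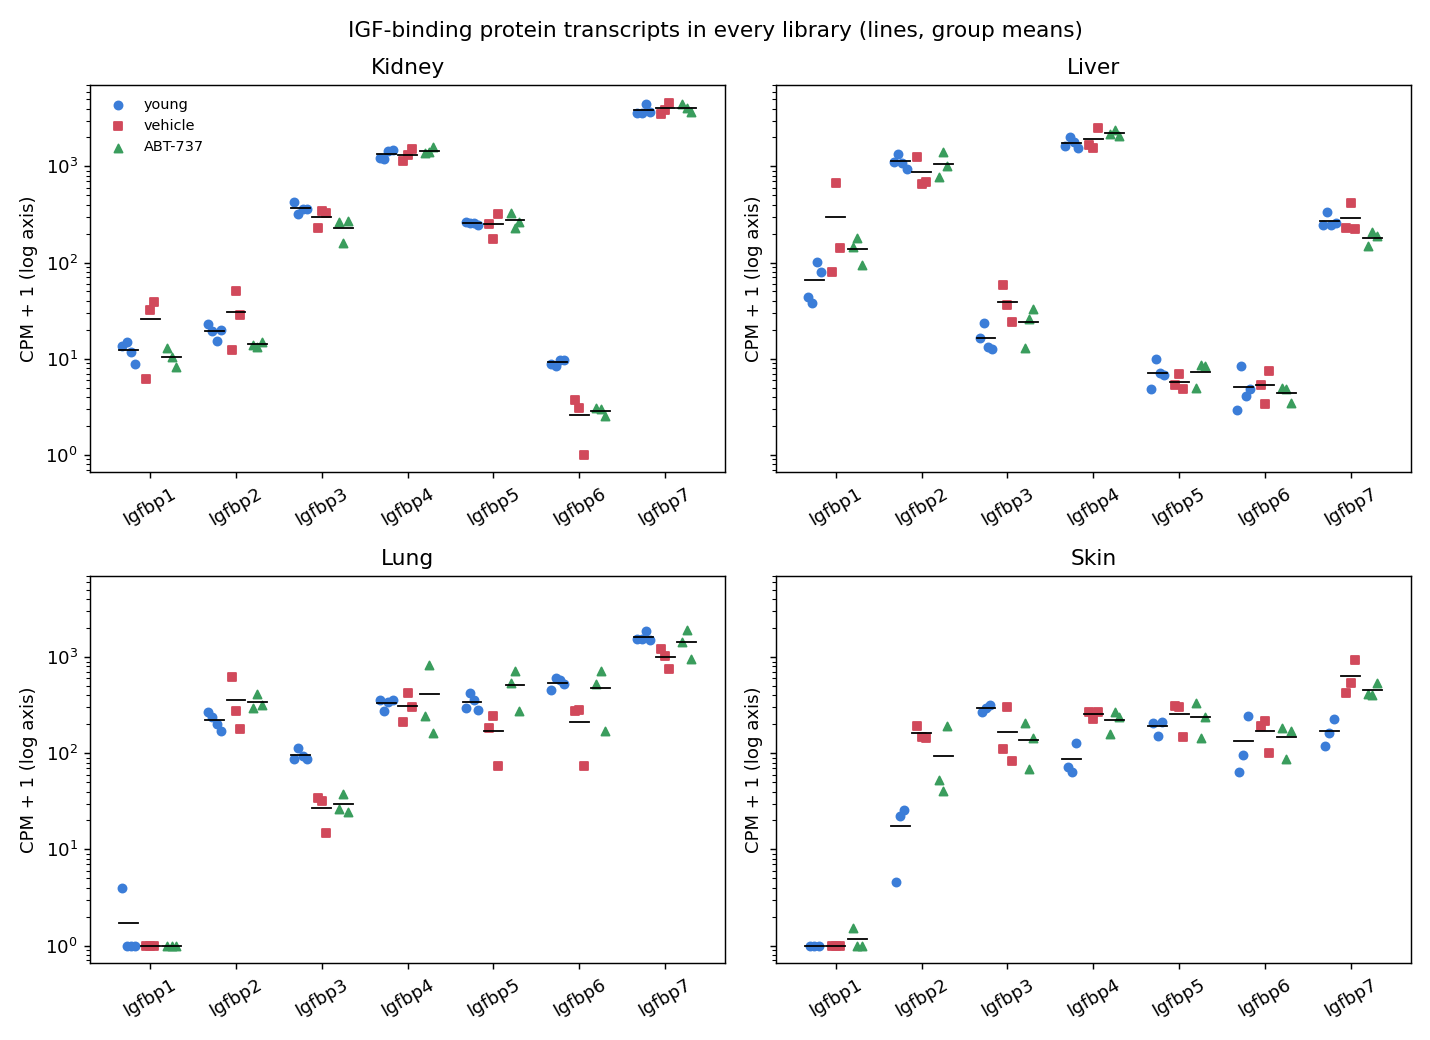
CPM + 1 on a log axis of the 7 members in every library of kidney, liver, lung and skin. Points are libraries (blue circles young, red squares vehicle, green triangles ABT-737) and black lines are group means. Igfbp7 lies highest in kidney and lung and in the skin of old mice, Igfbp3 lies highest in young skin, and Igfbp1 lies at or near 0 in lung and skin.

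The tissues were as labelled by their markers. Hepatocyte genes (5 listed, led by Alb) summed to 42013 CPM or more in every liver library, lung epithelial genes (led by Scgb1a1) to 24898 CPM or more in every lung library, and kidney tubule genes (led by Slc34a1) to 9823 CPM or more in every kidney library. Keratinocyte genes (led by Krt10) summed to 9909 CPM or more in skin. Skin also held skeletal muscle RNA, led by Acta1, which summed to 49951 to 71393 CPM in young, 7714 to 34538 CPM in vehicle-treated and 12643 to 39056 CPM in ABT-737-treated mice, so every young skin library lay above every old one, and the part of this in the skin results was not tested. In whole tissue, fewer cells of a type and less RNA per cell cannot be told apart.

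Between vehicle-treated old and young mice, the members that passed differed from tissue to tissue. In kidney 1 of 7 tested members passed, Igfbp6, which fell, against 13.3% of all genes. In liver 2 of 5 passed, Igfbp1 and Igfbp3, which rose, against 22.6%. In lung 1 of 6 passed, Igfbp3, which fell, against 12.9%, and in skin 3 of 6 passed, Igfbp2, Igfbp4 and Igfbp7, which rose, against 11.2%. Over the tested members the median log2 fold change was 0.98 in skin, 0.14 in liver, -0.011 in kidney and -0.85 in lung, beside 0.054, 0.019, 0.0062 and 0.039 over all genes. Igfbp5 and Igfbp6 in liver, at 6 counts or fewer in any library, and Igfbp1 in lung and skin were below the count filter and not tested.

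Between ABT-737-treated and vehicle-treated mice, 0 members passed in any tissue by edgeR. At an unadjusted p under 0.05 there were 2 in lung, 2 in kidney, 1 in liver and 0 in skin, and DESeq2 called 1, 0, 0 and 0. The share of all genes that passed was 3.85% in liver, 1.35% in kidney and 0% in lung and skin, where edgeR called 0 genes. In lung 1919 genes and in skin 1134 had an unadjusted p under 0.05, and DESeq2 called 328 and 58. Between ABT-737-treated and young mice the members that passed were Igfbp6 in kidney, Igfbp3 in lung, and Igfbp4 and Igfbp7 in skin, with 0 in liver (1 at an unadjusted p under 0.05, and 0 by DESeq2), against 2.12%, 2.55%, 5.17% and 8.4% of all genes. The 3 comparisons share groups of mice and are given side by side, not as independent results.

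**Figure D3:**
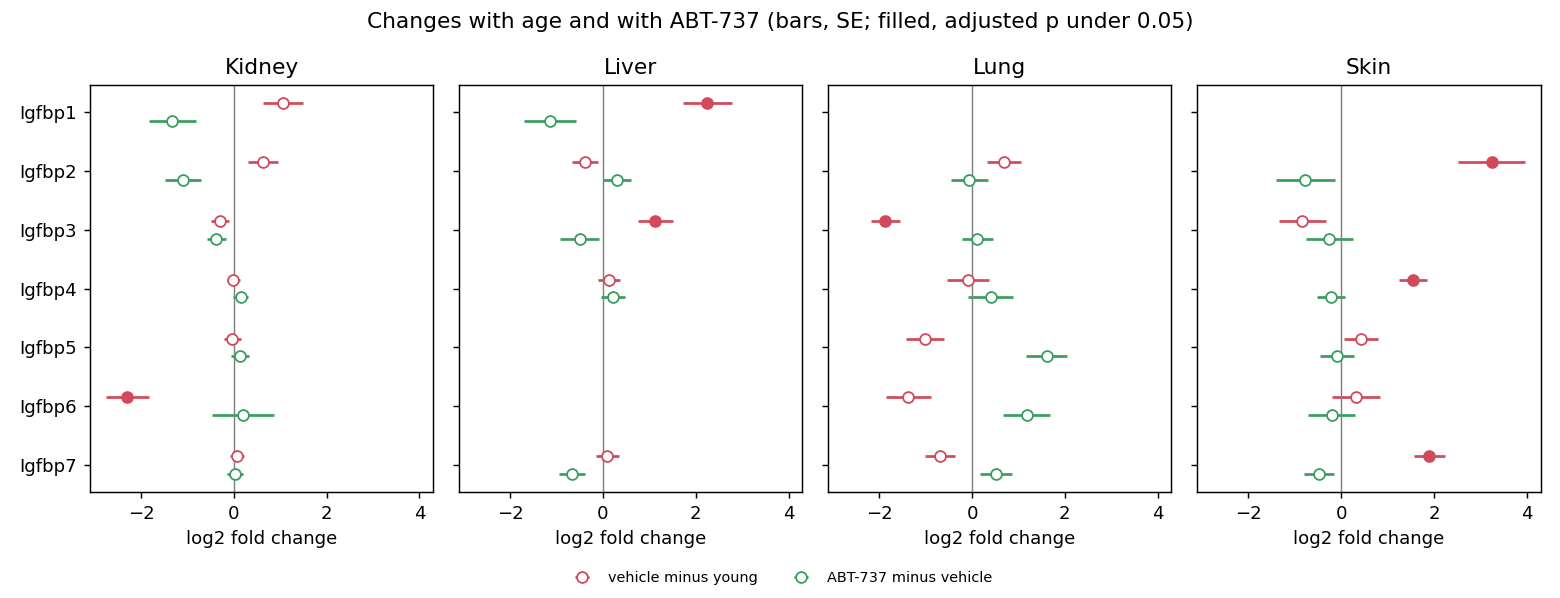
Log2 fold change of each tested member with age (red, vehicle minus young) and with drug (green, ABT-737 minus vehicle) in each tissue, from edgeR. Bars are standard errors, and filled points have an adjusted p under 0.05. The 7 filled points are all red, and skin holds 3 of them, liver 2, kidney 1 and lung 1.

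Igfbp1 stood out in old liver through a single library. Its liver level was 42.6, 37.3, 99.8 and 78.7 CPM in the 4 young mice, 78.6, 667 and 141 CPM in vehicle-treated replicates 3, 4 and 5, and 143, 178 and 94.1 CPM in the ABT-737-treated mice. Vehicle replicate 4 was far above all others, vehicle replicate 3 lay inside the young range, and the groups overlapped. The rise from young to vehicle was 2.25 ± 0.53, adjusted p = 0.00706 (log2 fold change ± SE). Without vehicle replicate 4 it was 0.85 with an adjusted p of 0.136. The difference of ABT-737 from vehicle was -1.15 ± 0.56, adjusted p = 0.345, and it was 0.27 without that library. ABT-737-treated mice differed from young by 1.10 ± 0.56, adjusted p = 0.243, and by 1.12 with an adjusted p of 0.0475 when vehicle replicate 4 was left out. Without vehicle replicate 3, which lay inside the young range, the difference of ABT-737 from vehicle was -1.53 with an adjusted p of 0.0417.

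In kidney, where far less Igfbp1 was found, the level was 12.4, 14.1, 10.8 and 7.85 CPM in young, 5.10, 30.8 and 38.0 CPM in vehicle-treated and 11.8, 9.40 and 7.27 CPM in ABT-737-treated mice. Vehicle replicates 4 and 5 were the highest of all 10 kidneys and vehicle replicate 3 the lowest. With all libraries the log2 fold change was 1.06 ± 0.43, adjusted p = 0.117 against young and -1.32 ± 0.50, adjusted p = 0.218 for ABT-737 against vehicle. Neither passed. Without vehicle replicate 3 both passed, at 1.58 with an adjusted p of 0.000522 and -1.86 with an adjusted p of 0.0024. In skin Igfbp1 was at 0 counts in 8 of 9 libraries, which allows up to 0.828 to 2.17 CPM, and ABT-737 replicate 3 had 2 counts.

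Igfbp2 was the member that rose most in old skin. It was at 3.62, 21.3 and 24.6 CPM in the 3 young, 192, 147 and 143 CPM in the vehicle-treated and 51.9, 39.2 and 190.2 CPM in the ABT-737-treated mice. Every old library lay above every young one, and ABT-737 replicate 5 stood with the vehicle-treated mice while replicates 3 and 4 lay between the groups. From young to vehicle the log2 fold change was 3.24 ± 0.72, adjusted p = 0.0259, that of ABT-737 against vehicle was -0.77 ± 0.64, adjusted p = 0.806, and that of ABT-737 against young was 2.47 ± 0.70, adjusted p = 0.0691, short of the threshold. The last passed with DESeq2, at 2.46 with an adjusted p of 0.00322, and without ABT-737 replicate 3, at 2.75 with an adjusted p of 0.0269. With each library left out in turn, the rise with age ranged from 2.80 to 3.63 and passed in 5 of 9 fits. It did not pass when any of the young libraries or vehicle replicate 5 was left out.

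In the other tissues no difference of Igfbp2 passed with all libraries. Liver Igfbp2 was 1119, 1355, 1097 and 938 CPM in young, 1266, 657 and 682 CPM in vehicle-treated and 773, 1394 and 998 CPM in ABT-737-treated mice, with overlapping groups and a log2 fold change of -0.39 ± 0.28, adjusted p = 0.351 against young, which was -0.75 with an adjusted p of 0.0293 without vehicle replicate 3. Lung Igfbp2 was 271, 237, 201 and 172 CPM in young, 614, 276 and 178 CPM in vehicle-treated and 294, 412 and 320.3 CPM in ABT-737-treated mice, and vehicle replicate 3 was the highest of the 10 lungs. Each ABT-737 lung lay above each young lung, but the log2 fold change was 0.64 ± 0.36, adjusted p = 0.342. In kidney it was 21.9, 18.2, 14.3 and 18.9 CPM in young, 11.4, 49.3 and 27.7 CPM in vehicle-treated and 12.8, 12.4 and 14.0 CPM in ABT-737-treated mice. As with Igfbp1, vehicle replicates 4 and 5 were the highest kidneys and vehicle replicate 3 was the lowest, and the log2 fold changes were 0.63 ± 0.33, adjusted p = 0.231 against young and -1.10 ± 0.38, adjusted p = 0.185 for ABT-737 against vehicle. Without vehicle replicate 3 they were 1.04 with an adjusted p of 0.00843 and -1.52 with an adjusted p of 0.00695.

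Igfbp3 fell in old lung. The lungs of young mice had 85.8, 113, 91.7 and 86.3 CPM, those of vehicle-treated mice 33.5, 30.9 and 13.8 CPM and those of ABT-737-treated mice 25.1, 36.9 and 23.3 CPM. The lowest young lung was above the highest old lung, and the old groups overlapped each other. The log2 fold change against young was -1.87 ± 0.32, adjusted p = 0.00361 for vehicle and -1.75 ± 0.32, adjusted p = 0.0249 for ABT-737, and that of ABT-737 against vehicle was 0.12 ± 0.34, adjusted p = 0.89. The fall from young to vehicle passed in 10 of 10 fits that each left out 1 library, at -2.08 to -1.55. The difference of ABT-737 from young passed in 5 of 10, failing without any of the young libraries or ABT-737 replicate 5.

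In liver Igfbp3 was a rare transcript, at 3 to 30 counts per library. It was at 15.5, 22.4, 12.3 and 11.5 CPM in young, 56.7, 35.1 and 23.1 CPM in vehicle-treated and 11.9, 24.7 and 32.2 CPM in ABT-737-treated mice. All vehicle-treated livers lay above all young ones, narrowly, and the ABT-737 group overlapped both. Its rise from young to vehicle was 1.13 ± 0.38, adjusted p = 0.0436. It passed in 4 of 10 fits that left out 1 library (young replicate 2, vehicle replicate 5, or ABT-737 replicate 3 or 5), and with DESeq2 it was 1.14 with an adjusted p of 0.134.

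Kidney had the most Igfbp3 of the first 3 tissues, with 426, 317, 361 and 362 CPM in young, 230.1, 341 and 324 CPM in vehicle-treated and 264, 157 and 266 CPM in ABT-737-treated mice. All ABT-737-treated kidneys lay below all young ones, with a log2 fold change of -0.68 ± 0.19, adjusted p = 0.0784, and the vehicle-treated kidneys overlapped both groups. With DESeq2 the former was -0.68 with an adjusted p of 0.0389, and without vehicle replicate 3 it was -0.68 with an adjusted p of 0.0495. Skin Igfbp3 was 266, 296 and 318 CPM in young, 111, 302 and 82.2 CPM in vehicle-treated and 203, 68.2 and 143 CPM in ABT-737-treated mice. There vehicle replicate 4 was among the young values and the others were below them, and the log2 fold change was -0.83 ± 0.50, adjusted p = 0.282 for vehicle and -1.09 ± 0.51, adjusted p = 0.181 for ABT-737 against young. Without vehicle replicate 4 the first was -1.62 with an adjusted p of 0.0484.

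The change of Igfbp3 with age differed between tissues when the difference itself was tested in a joint fit of kidney, liver and lung. Lung differed from kidney by -1.56 ± 0.37, adjusted p = 0.00968 and from liver by -3.03 ± 0.47, adjusted p = 9.64e-05, while liver differed from kidney by 1.47 ± 0.45, adjusted p = 0.135. Of all genes, 8.04%, 11.4% and 0.786% passed in these 3 tests. Igfbp3 was the only member that passed in any of them, and Igfbp1 could not be compared with lung, where it was near 0. The change with ABT-737 differed between tissues for 0 members by edgeR, against 0.0839% of all genes for liver against kidney, 0% for lung against kidney (1219 genes at an unadjusted p under 0.05, and 20 by DESeq2) and 0.29% for lung against liver. The members with an unadjusted p under 0.05 there were Igfbp2 for liver against kidney, Igfbp5 for lung against kidney and Igfbp7 for lung against liver, and DESeq2 called only the last, at 1.15 with an adjusted p of 0.0431.

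Igfbp4 rose in old skin, and no difference of it passed in the other tissues. Its skin level was 70.2, 62.7 and 127 CPM in young, 269, 228 and 266 CPM in vehicle-treated and 157, 265 and 235 CPM in ABT-737-treated mice. Every old library lay above every young one. The log2 fold change against young was 1.55 ± 0.31, adjusted p = 0.0191 for vehicle and 1.33 ± 0.31, adjusted p = 0.0418 for ABT-737, and that between the old groups was -0.22 ± 0.30, adjusted p = 0.897. The first passed in 6 of 9 fits that left out 1 library, failing without young replicate 1, young replicate 2 or vehicle replicate 5. The second passed in 2 of 9, those without vehicle replicate 5 or ABT-737 replicate 3.

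In kidney Igfbp4 was 1329 ± 142 CPM in young, 1319 ± 194 CPM in vehicle-treated and 1462 ± 122 CPM in ABT-737-treated mice (mean ± SD, n = 4, 3 and 3), and the log2 fold change with age was -0.011 ± 0.15, adjusted p = 0.971. Liver, with 1744 ± 201, 1917 ± 525 and 2224 ± 152 CPM in the same order, had a log2 fold change of 0.14 ± 0.24, adjusted p = 0.725, and all 3 ABT-737 livers lay above the young ones (0.35 ± 0.24, adjusted p = 0.389). Lung Igfbp4 was 354, 271, 339.7 and 361 CPM in young, 211, 425 and 299 CPM in vehicle-treated and 246, 831 and 163 CPM in ABT-737-treated mice. ABT-737 replicate 4 was the highest lung and ABT-737 replicate 5 the lowest, so that the treated group spanned both others. Adipocyte genes, led by Cfd, summed to 4795 CPM in ABT-737 replicate 4 and to between 11.97 and 170.4 CPM in the other lungs, and the part of this in the members' values was not tested. Without that library the log2 fold change of Igfbp4 from vehicle to ABT-737 was -0.62, against 0.40 with it.

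Igfbp5, which binds matrix and bone mineral, differed most between the old groups of lung. Young lungs had 298, 425, 353 and 283 CPM, vehicle-treated lungs 184, 246 and 72.9 CPM and ABT-737-treated lungs 539.7, 719.7 and 273 CPM. All vehicle-treated lungs were below all young and all ABT-737-treated ones, vehicle replicate 5 was the lowest, and the ABT-737 and young groups overlapped. The log2 fold change was -1.02 ± 0.41, adjusted p = 0.111 for vehicle against young and 1.61 ± 0.43, adjusted p = 0.129 for ABT-737 against vehicle, neither of which passed. In lung, deviations of same-numbered libraries correlated positively, although ABT-737 replicate 3 correlated best with vehicle replicate 4. The labels do not say that the numbers pair mice. With the number as a block the second was 1.67 with an adjusted p of 0.0442, which passed. It also passed with DESeq2, at 1.60 with an adjusted p of 0.0187, and without ABT-737 replicate 5, at 1.90 with an adjusted p of 0.0416, while the first passed without vehicle replicate 4, at -1.42 with an adjusted p of 0.042. Without vehicle replicate 5, the 2 values were -0.66 with an adjusted p of 0.38 and 1.24 with an adjusted p of 0.359. Without ABT-737 replicate 4, the lung with adipocyte RNA, the second was 1.27 with an adjusted p of 0.117. The treated group against young gave 0.59 ± 0.39, adjusted p = 0.428.

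No difference of Igfbp5 passed in the other tissues. Kidney had 256 ± 7.99 CPM in young, 249 ± 71.6 CPM in vehicle-treated and 273 ± 50.8 CPM in ABT-737-treated mice, with log2 fold changes of -0.035 ± 0.18, adjusted p = 0.924 with age and 0.13 ± 0.19, adjusted p = 0.808 with the drug. Skin had 205, 150.2 and 212 CPM in young, 313, 301 and 146 CPM in vehicle-treated and 334, 143 and 239.5 CPM in ABT-737-treated mice, and all 3 groups overlapped. In liver it was between 1 and 6 counts per library.

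Igfbp6 fell in old kidney, where it is rare. Its counts were 18, 27, 30 and 19 in young kidneys, 7, 3 and 0 in vehicle-treated and 4, 4 and 3 in ABT-737-treated ones, or 7.72, 7.44, 8.78 and 8.77 CPM, 2.75, 2.05 and 0 CPM and 2.05, 1.98 and 1.56 CPM. No old kidney reached the lowest young one. The count of 0 in vehicle replicate 5 allows up to 1.41 CPM. The log2 fold change against young was -2.29 ± 0.47, adjusted p = 0.00419 for vehicle, which passed in 10 of 10 fits that left out 1 library, and -2.10 ± 0.46, adjusted p = 0.0248 for ABT-737, which passed in 3 of 10, those that left out a vehicle library. Between the old groups it was 0.20 ± 0.67, adjusted p = 0.926, with at most 7 counts in each library.

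In lung, the richest in Igfbp6 among kidney, liver and lung, the levels were 450.3, 604, 579.6 and 526 CPM in young, 272, 279.6 and 72.9 CPM in vehicle-treated and 527, 718 and 170.0 CPM in ABT-737-treated mice. All vehicle-treated lungs lay below all young ones, and ABT-737 replicate 5 lay far below replicates 3 and 4. The log2 fold changes of -1.38 ± 0.49, adjusted p = 0.0778 with age and 1.18 ± 0.51, adjusted p = 0.275 with the drug did not pass. Without vehicle replicate 5, the first was -0.97 with an adjusted p of 0.274. It passed with DESeq2, at -1.40 with an adjusted p of 0.0285, and without ABT-737 replicate 5, at -1.37 with an adjusted p of 0.0274. Vehicle replicate 5 and ABT-737 replicate 5 were the lowest of their groups for Igfbp5 and Igfbp6 alike. Skin Igfbp6 was 62.9, 94.9 and 246 CPM in young, 192, 214 and 100.1 CPM in vehicle-treated and 184, 86.2 and 169 CPM in ABT-737-treated mice, where young replicate 3 was the highest of all, and the groups overlapped.

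Igfbp7 rose in old skin. It stood at 119, 161 and 225 CPM in young, 427, 536 and 924 CPM in vehicle-treated and 412, 404 and 542 CPM in ABT-737-treated mice. Each old library exceeded each young one, and vehicle replicate 5 was the highest. The log2 fold change against young was 1.90 ± 0.34, adjusted p = 0.0159 for vehicle, which passed in 7 of 9 fits that left out 1 library, and 1.43 ± 0.34, adjusted p = 0.0452 for ABT-737, which passed in 2 of 9. The first failed without young replicate 1 or 2, and the second passed without vehicle replicate 5 or ABT-737 replicate 3. Between the old groups it was -0.48 ± 0.33, adjusted p = 0.77.

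In kidney, where Igfbp7 was the most abundant member, the levels were 3820.2 ± 406 CPM in young, 4005 ± 565 CPM in vehicle-treated and 4070.1 ± 373 CPM in ABT-737-treated mice, with a log2 fold change of 0.068 ± 0.15, adjusted p = 0.816 with age. Lung Igfbp7 was 1529.8, 1552, 1852 and 1501 CPM in young, 1205, 1035 and 759 CPM in vehicle-treated and 1419, 1912 and 949 CPM in ABT-737-treated mice. All vehicle-treated lungs lay below all young ones, without passing (-0.69 ± 0.32, adjusted p = 0.168). Liver Igfbp7 was 244, 337, 246 and 257 CPM in young, 227, 413 and 219.6 CPM in vehicle-treated and 147, 209 and 186 CPM in ABT-737-treated mice. The ABT-737-treated livers lay below all vehicle-treated and all young ones, with log2 fold changes of -0.67 ± 0.28, adjusted p = 0.224 and -0.57 ± 0.26, adjusted p = 0.191, which did not pass. Fitted on the 2 groups alone, the second was -0.56 with an adjusted p of 0.038.

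**Figure D4:**
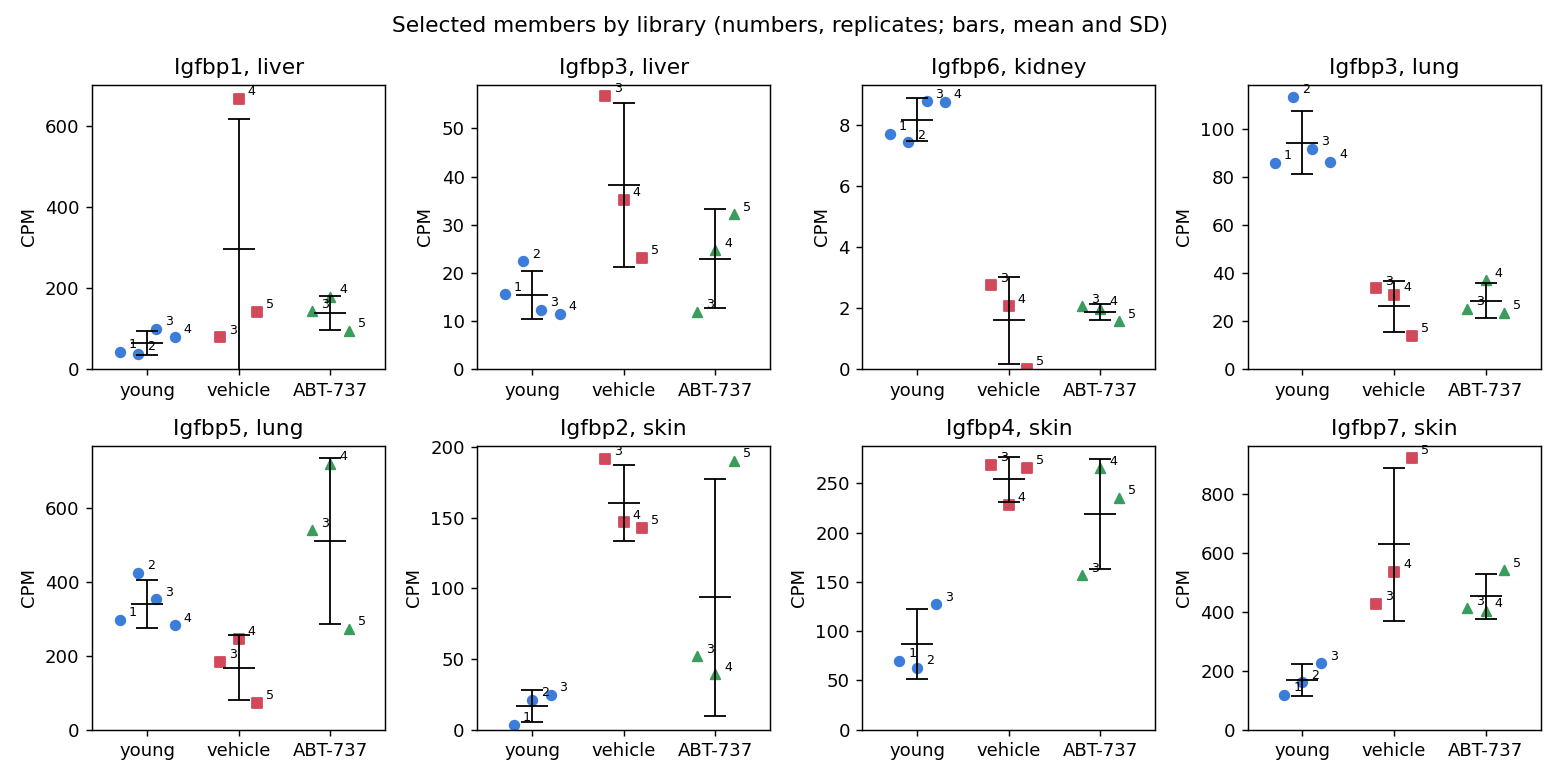
CPM of 8 pairs of member and tissue in every library, on linear axes from 0. Points are libraries numbered by replicate, and bars are mean and SD per group, with the lower bar of Igfbp1 in vehicle-treated liver cut at 0. Vehicle replicate 4 carries most of the Igfbp1 mean in liver, while lung Igfbp3, kidney Igfbp6 and the 3 skin members separate old from young libraries.

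The rest of the pathway was read from lists of genes. Among IGF ligands, liver Igf1, the endocrine source, was 1229 ± 126 CPM in young and 1062 ± 283 CPM in vehicle-treated mice (mean ± SD, n = 4 and 3), a log2 fold change of -0.21 ± 0.23, adjusted p = 0.567. Skin Igf1 rose from 16.2 ± 8.30 to 48.7 ± 11.5 CPM (1.56 ± 0.41, adjusted p = 0.0418), in the same comparison as Igfbp2, Igfbp4 and Igfbp7, and lung Igf1 had 1.33 ± 0.49, adjusted p = 0.0901. Igf2 was at 4.81 ± 0.778 CPM in young kidney, 39.4 ± 3.98 CPM in young lung and 10.7 ± 2.74 CPM in young skin, and its log2 fold change with age was -0.22 ± 0.33, adjusted p = 0.709 in kidney, -0.84 ± 0.46, adjusted p = 0.241 in lung and -0.10 ± 0.49, adjusted p = 0.909 in skin. It passed in kidney between ABT-737-treated and young mice (-1.61 ± 0.40, adjusted p = 0.0493) by edgeR, but not by DESeq2. Liver Igf2 was not tested.

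Igf1r, the receptor through which both IGFs act, had log2 fold changes with age of 0.21 ± 0.15, adjusted p = 0.388 in kidney, -1.28 ± 0.45, adjusted p = 0.0759 in lung and -0.23 ± 0.21, adjusted p = 0.468 in skin. Of the 4 listed receptors the 1 call with age by edgeR was kidney Insrr, an orphan relative of the insulin receptor, which fell (-0.78 ± 0.20, adjusted p = 0.0181). It was 1 of 4 tested in kidney, against 13.3% of all genes. DESeq2 also called 1 of the 3 tested in lung. Igfals, whose product holds IGF and IGFBP3 in the circulating complex, was 439.9 ± 77.9 CPM in young and 365 ± 152 CPM in vehicle-treated liver (-0.28 ± 0.28, adjusted p = 0.525), and had -0.13 ± 0.23, adjusted p = 0.769 in kidney and -0.32 ± 0.48, adjusted p = 0.675 in skin.

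Of the 7 listed proteases of binding proteins and their inhibitors, skin Stc1, an inhibitor of PAPP-A, rose from 0.495 ± 0.460 to 4.31 ± 0.369 CPM with age (adjusted p = 0.0491), on at most 20 counts in a library. Kidney Htra1, a serine protease that cleaves IGFBP5, rose (0.42 ± 0.13, adjusted p = 0.0492). By edgeR these were 1 of 5 tested genes in skin and 1 of 2 in kidney, against 11.2% and 13.3% of all genes. In lung 0 of 3 passed by edgeR (1 at an unadjusted p under 0.05, and 0 by DESeq2), against 12.9%. Among those that did not pass were Stc1 in kidney (1.18 ± 0.38, adjusted p = 0.0517) and lung (-1.40 ± 0.50, adjusted p = 0.081), and in skin Stc2 (-1.35 ± 0.44, adjusted p = 0.0731), Pappa (0.92 ± 0.89, adjusted p = 0.496) and Pappa2 (-0.75 ± 0.40, adjusted p = 0.226). None of the 7 was tested in liver. Between ABT-737 and vehicle, 0 of the tested ligands, receptors, Igfals, proteases and inhibitors passed by edgeR in any tissue. At an unadjusted p under 0.05 there were 1 of 8 in lung, 1 of 9 in kidney, 0 of 12 in skin and 0 of 3 in liver, DESeq2 called 0 in each, and kidney Igf2 came nearest (-1.39 ± 0.45, adjusted p = 0.151).

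Growth hormone signalling sets hepatic Igf1 and Igfals. In liver 3 of 5 tested genes passed with age, against 22.6% of all genes (2 of 5 by DESeq2). Ghr, the receptor, fell from 212 ± 35.6 to 46.6 ± 41.5 CPM (-1.98 ± 0.40, adjusted p = 0.00226), Cish, a target and brake of STAT5, fell (-2.92 ± 0.40, adjusted p = 0.000137), and Socs3, a cytokine-induced brake, rose (1.13 ± 0.40, adjusted p = 0.0497). In kidney 4 of 8 passed, against 13.3% of all genes, with Ghr (-0.55 ± 0.17, adjusted p = 0.0452) and Cish (-1.88 ± 0.45, adjusted p = 0.0116) lower and Socs3 (1.97 ± 0.37, adjusted p = 0.0019) and Socs1 (1.60 ± 0.36, adjusted p = 0.00711) higher. In lung 4 of 8 passed, against 12.9%, with Socs1 (3.69 ± 0.68, adjusted p = 0.00485), Socs3 (2.34 ± 0.46, adjusted p = 0.00642) and Stat5a (1.20 ± 0.36, adjusted p = 0.0401) higher and Socs2 (-1.01 ± 0.30, adjusted p = 0.0399) lower, and in skin 1 of 8, Cish (-1.54 ± 0.28, adjusted p = 0.0154), a share near the 11.2% of all genes. Ghr did not pass in lung (-0.80 ± 0.42, adjusted p = 0.224) or skin (1.08 ± 0.42, adjusted p = 0.117). The list's median with age was -1.09 in liver, 0.30 in kidney, 0.085 in skin and 0.61 in lung. With ABT-737 against vehicle, Socs2 rose in liver (1.61 ± 0.41, adjusted p = 0.0379) and kidney (1.06 ± 0.23, adjusted p = 0.0311) and Socs3 fell in liver (-2.00 ± 0.51, adjusted p = 0.0388), beside 0.84 ± 0.44, adjusted p = 0.374 for liver Ghr. These were 2 of 5 tested genes in liver (1 by DESeq2) and 1 of 8 in kidney, against 3.85% and 1.35% of all genes.

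Downstream of the receptors, 3 of 11 tested genes of signal transduction rose in old liver, Irs2, an insulin receptor substrate that insulin represses (2.42 ± 0.40, adjusted p = 0.000603), Grb2 (0.83 ± 0.27, adjusted p = 0.0372) and the kinase Akt1 (0.71 ± 0.24, adjusted p = 0.0422). That share is near the 22.6% of all liver genes that passed, and DESeq2 called 1 of them. In skin 0 of 20 passed by edgeR (3 at an unadjusted p under 0.05, and 0 by DESeq2). The counts of this list in kidney and lung are not reported here. Of the insulin- and fasting-responsive genes, to which Igfbp1 is related by its control, 0 of 7 passed by edgeR in liver (0 at an unadjusted p under 0.05, and 0 by DESeq2), with a median of -0.056, while in kidney Pdk4 (2.42 ± 0.59, adjusted p = 0.0134), Angptl4 (1.69 ± 0.38, adjusted p = 0.00707) and G6pc (0.91 ± 0.17, adjusted p = 0.00209) rose (3 of 9, against 13.3% of all genes). In skin 1 of 10 passed, G6pc3, which fell (-0.84 ± 0.20, adjusted p = 0.0295), and DESeq2 called 4, against 11.2% of all genes by edgeR. In lung 0 of 9 passed by edgeR (1 at an unadjusted p under 0.05, and 0 by DESeq2). Among the cell cycle inhibitors used as marks of senescence, Cdkn1a rose in kidney (2.04 ± 0.24, adjusted p = 4.38e-05) and liver (from 4.94 ± 1.71 to 313 ± 214 CPM, 5.86 ± 0.62, adjusted p = 1.69e-05), and Cdkn2b in skin (1.54 ± 0.29, adjusted p = 0.0167). These were 1 of 1 tested in kidney, 1 of 1 in liver and 1 of 2 in skin, against 13.3%, 22.6% and 11.2% of all genes. In lung 0 of 2 passed by edgeR (0 at an unadjusted p under 0.05, and 0 by DESeq2), against 12.9% of all genes. With ABT-737 against vehicle 0 passed by edgeR in any tissue (1 at an unadjusted p under 0.05, in kidney, and 0 by DESeq2), and liver Cdkn1a had 0.16 ± 0.46, adjusted p = 0.926.

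RNA of other cell types moved with the groups. Leukocyte genes (6 listed, led by Cd74) summed to 372 ± 75.4 CPM in young, 2093 ± 502 in vehicle-treated and 606 ± 129 in ABT-737-treated kidney, and to 149 ± 22.01, 1438 ± 599 and 197 ± 63.2 CPM in liver. They summed to 2666 ± 242, 7289.9 ± 2086 and 4762 ± 1371 CPM in lung and to 528 ± 332, 2551 ± 517 and 1088 ± 427 CPM in skin. In each tissue every vehicle-treated library lay above every young one. All tested leukocyte genes rose with age in kidney (5), liver (3) and skin (4), against 13.3%, 22.6% and 11.2% of all genes, and 5 of 6 did in lung, against 12.9%. With ABT-737, 4 of 5 fell in kidney and 3 of 3 in liver (2 by DESeq2), against 1.35% and 3.85% of all genes. By edgeR 0 of 6 passed in lung and 0 of 4 in skin, where 2 in each had an unadjusted p under 0.05 and DESeq2 called 0 and 1. Of the 6 listed adipocyte genes, 1 was tested in liver, and it rose with age and again with ABT-737, against 22.6% and 3.85% of all genes. A single gene cannot show whether adipocyte RNA as such changed there. With ABT-737 against vehicle 0 of 4 adipocyte genes passed by edgeR in kidney, 0 of 4 in lung and 0 of 6 in skin. There 4, 4 and 1 had an unadjusted p under 0.05, and DESeq2 called 1, 0 and 0. Their median log2 fold change was -1.15 in kidney, 4.33 in lung and 0.64 in skin. In lung their sum in the treated group rested on ABT-737 replicate 4, with 4795 CPM against 11.97 to 170.4 CPM in the other lungs. Of the exocrine pancreas genes 1 of 5 rose with age in lung, against 12.9% of all genes. Blood genes (5 listed, led by Hbb-bs) summed to 2350.2 ± 2343 CPM in young, 11604 ± 19.6 in vehicle-treated and 8830.0 ± 2104 in ABT-737-treated kidney (5 of 5 rose with age, against 13.3% of all genes), and to 677 ± 317, 3059 ± 308 and 1832 ± 685 CPM in liver (4 of 5 rose, against 22.6%). In both tissues every vehicle-treated library lay above every young one. The sums were 550.3 ± 45.7, 6925 ± 6967 and 717 ± 331 CPM in skin (5 of 5 rose with age, against 11.2% of all genes) and 1972 ± 558, 8849 ± 7392 and 20471 ± 23939.5 CPM in lung (2 of 5 rose, against 12.9%). In skin, with ABT-737 against vehicle, 0 of 5 passed by edgeR, 5 had an unadjusted p under 0.05 and DESeq2 called 5. The part of these shifts in the members' differences was not tested.

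Markers of the cells that are rich in binding proteins also varied. In lung, 2 of 5 tested fibroblast genes and 2 of 6 mural genes fell with age and 1 mural gene rose, against 12.9% of all genes (3 fibroblast, 4 mural and 2 of 7 endothelial genes by DESeq2, beside 0 endothelial genes by edgeR and 4 at an unadjusted p under 0.05). Endothelial genes (7 listed, led by Pecam1) summed to 686 CPM in vehicle replicate 5, the library lowest for Igfbp3, Igfbp5, Igfbp6 and Igfbp7, against 1233 CPM or more in the other lungs. In skin, where Igfbp4 and Igfbp7 rose, endothelial genes summed to 76.3 ± 22.8 CPM in young, 196 ± 44.7 in vehicle-treated and 101 ± 17.8 in ABT-737-treated mice (3 of 7 rose with age, against 11.2% of all genes), and fibroblast and matrix genes, led by Col1a1, to 4736 ± 3145, 7626 ± 3122 and 7795 ± 4429 CPM (1 of 6 rose, and 2 passed by DESeq2). In liver, where the ABT-737 group was lowest for Igfbp7, endothelial genes summed to 73.7 ± 9.93 CPM in young, 98.3 ± 3.91 in vehicle-treated and 57.8 ± 15.9 in ABT-737-treated mice. The old groups did not overlap, and Pecam1, the 1 endothelial gene tested, rose with age (0.94 ± 0.32, adjusted p = 0.0436) and fell with ABT-737 (-1.54 ± 0.40, adjusted p = 0.0439) by edgeR, while DESeq2 called neither. Mural genes there summed to 22.6 ± 5.35, 44.8 ± 7.01 and 22.8 ± 6.93 CPM, and 0 of the 6 listed passed the count filter. Fibroblast and matrix genes, led by Dcn, summed to 77.8 ± 17.1, 173 ± 119 and 66.2 ± 21.6 CPM. The 1 fibroblast gene tested there rose with age by edgeR and also passed by DESeq2, against 22.6% of all genes by edgeR. With ABT-737 against vehicle 0 passed by edgeR (1 at an unadjusted p under 0.05, and 0 by DESeq2). In kidney, where Igfbp6 fell, 2 of 7 endothelial and 1 of 6 mural genes rose with age, against 13.3% of all genes. Of 5 fibroblast genes there, 0 passed with age by edgeR (2 at an unadjusted p under 0.05, and 0 by DESeq2). With ABT-737 against vehicle 0 of these 5 passed by edgeR (4 at an unadjusted p under 0.05, and 0 by DESeq2). The part of these markers in the members' differences was not tested. The summed level of circadian clock genes separated old from young in all 4 tissues, but single genes went both ways. From young to vehicle, 3 rose and 6 fell of 12 tested in kidney, and 1 rose and 2 fell of 5 in liver. In lung 2 rose and 5 fell of 12, and in skin 2 rose and 6 fell of 11. The shares of all genes that passed were 13.3%, 22.6%, 12.9% and 11.2%. Their sum in liver was 559 ± 78.1 CPM in young, 194 ± 32.9 in vehicle-treated and 195 ± 9.84 in ABT-737-treated mice, and in lung 1515 ± 118, 278 ± 117 and 367 ± 56.9 CPM. The hour of tissue collection is not given in the sources used here, and whether it moved the members was not tested.

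**Figure D5:**
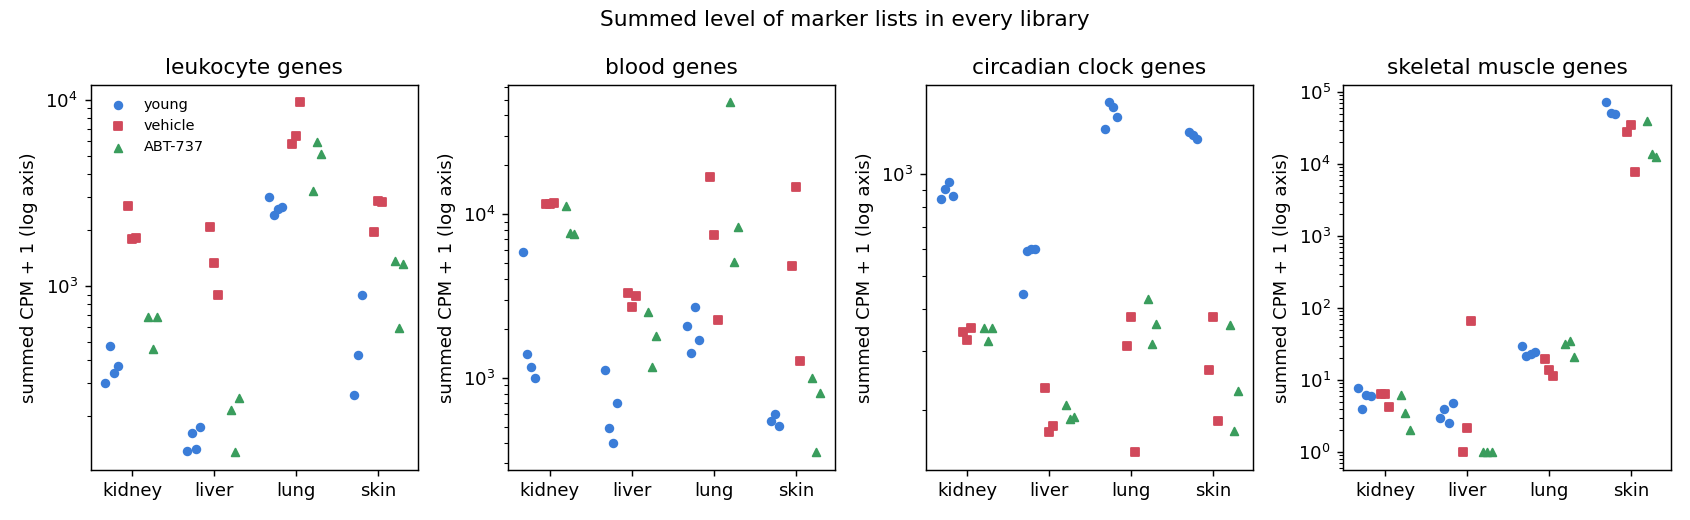
Summed CPM + 1 on a log axis of the leukocyte, blood, circadian clock and skeletal muscle genes in each library, by tissue. Points are libraries (blue circles young, red squares vehicle, green triangles ABT-737). Leukocyte sums of vehicle-treated mice lie above those of young mice in every tissue, circadian clock sums of young mice lie above all others, and skeletal muscle genes are abundant in skin alone.

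For each member, the genes whose level was most like its own across the 10 libraries of the tissue where its CPM was highest are given as a description, by Pearson's r of log2(CPM + 1). The libraries share groups, depth and marker shifts, so these values are not tests. They were Cebpb (r = 0.916), Spg21 (0.883) and Gtpbp1 (0.866) for Igfbp1 in liver, Ndufb9 (0.839), Auh (0.831) and Mrpl57 (0.818) for Igfbp2 in liver, and Apoc2 (0.947), Apoc4-apoc2 (0.945) and Gm4737 (0.921) for Igfbp4 in liver. Apoc2 and Apoc4-apoc2 overlap each other and cannot be counted as separate genes. In kidney they were Tmem222 (0.973), Tmem97 (0.964) and Cdpf1 (0.963) for Igfbp3, and Dnajc28 (0.903), Diexf (0.870) and Gpatch2l (0.852) for Igfbp7. In lung they included Agpat9 (0.961) and D630024D03Rik (0.956) for Igfbp5 and were Faim2 (0.988), Slc39a4 (0.981) and Thra (0.979) for Igfbp6.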

How the data were processed

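RNA was extracted by the authors from 39 tissue samples of perfused mice, and 3′-end libraries were prepared with a bulk version of MARS-seq. The submitters' processing notes name bcl2fastq, HISAT 0.1.5, HOMER and mm10, with no role given. The authors deposited raw whole-number counts without normalization, in one table for kidney, liver and lung (1 RefSeq transcript per gene) and another for skin (Ensembl transcripts). Of the skin transcripts matched to GENCODE M21, 83.9% ended about 2000 bases past the annotated 3′ end. No comparison was made between the tables. Whether reads of one molecule were collapsed is not given in the sources used here, so limits for counts of 0 (3 counts per library) cover counting error only.

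Samples were grouped by title, age and treatment. ABT-738 and ABT-739 appear in the treatment label of some drug-treated mice, whose titles place them in the ABT-737 group. The labels call the samples biological replicates. No pair of libraries agreed within sampling noise. In each tissue the 3 groups were fitted together in R 4.3.3 with edgeR 4.0.16 (filterByExpr, TMM, quasi-likelihood test, Benjamini-Hochberg adjustment over the genes tested, 14224 in skin, 11949 in lung, 11123 in kidney and 5583 in liver), and an adjusted p under 0.05 was called. Differences between tissues were tested in a joint fit of the first table. CPM refer to the counts in the tested genes, with library sizes scaled by TMM within a tissue (over kidney, liver and lung together for young tissues). The biological coefficient of variation was 16.5%, 23.5%, 31.7% and 34.9% in kidney, liver, lung and skin. The fit was tested on simulated data, in which most of the smaller changes were missed in liver, lung and skin. In kidney the share of false calls lay above the threshold. A gene that did not pass may therefore still have changed.

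The rule for the members uses gene symbols alone, but the family, the lists of pathway and marker genes and the tests were chosen with earlier results of these data known. Named genes were the 7 members, Igf1, Igf2, Igf1r, Igfals, Ghr, Pappa, Pappa2, Stc1 and Stc2 where tested, other list genes only where called (at most 4 per list), and the 3 genes most like each member. Some genes that met this rule are not reported here. Lists of adipocyte and exocrine pancreas genes were also read. The old groups share replicate numbers. Deviations from the group means of same-numbered libraries, over 5000 genes, correlated at 0.23, 0.28 and 0.44 in lung, where the numbers were taken to pair the libraries, but not at over 0.1 in every pair elsewhere. Alternatives were DESeq2 1.42.0, other scalings, no count filter, only the compared groups, the replicate block and each library left out. Per-sample columns left unused numbered 0. Promoters and positions come from RefSeq and GENCODE on GRCm38.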

Additional observations from a re-analysis of the deposited data

Results flagged for a closer look

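Of the 21 combinations of member and tissue with 4 young libraries, 3 held a library set apart from the others by Dixon's test at the 95% level, which chance gives in about 1 of 20. In young liver, replicate 2 had 337 CPM of Igfbp7, against 244 to 257 CPM in the other young livers. In young lung, replicate 3 had 1852 CPM of Igfbp7, against 1501 to 1552 CPM. The single young lung with any Igfbp1, replicate 1, was at 2.94 CPM, from 6 counts. With the other young lungs at 0 counts, any count would have been set apart. This flag is therefore no test, and the chance rate does not apply to it.

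The change of Igfbp3 with age differed between tissues when the difference was tested. It was -1.87 in lung, -0.30 in kidney and 1.13 in liver on the log2 scale, and the joint fit gave -1.56 ± 0.37, adjusted p = 0.00968 for lung against kidney and -3.03 ± 0.47, adjusted p = 9.64e-05 for lung against liver. Igfbp7 lay in opposite directions from young in skin and lung. Each vehicle-treated skin lay above, and each vehicle-treated lung below, every young library of its tissue, and the log2 fold changes of 1.90 and -0.69 were 2.59 apart. This difference was not tested, since the tissues were counted in separate tables, and the lung change did not pass by itself.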

How the results depend on the processing

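Apart from leaving out libraries, 531 fold changes of members kept their direction and their side of the threshold, 20 came to pass, 5 no longer passed and 7 changed sign. The sign changed for Igfbp7 in kidney with ABT-737 (-0.031 on total counts), Igfbp2 in lung with ABT-737 (0.14 with the replicate block) and the liver to kidney difference of the Igfbp7 change with age (-0.0097 with DESeq2 size factors, -0.0015 with DESeq2). With vehicle-treated in place of young mice, it also changed for Igfbp6 in liver against kidney (2.13), Igfbp5 in lung against kidney (-0.70) and Igfbp3 in lung against liver (-1.33, adjusted p = 0.0173). The number of members called with age became 2 in kidney without the count filter, 1 in liver with DESeq2, its size factors, total counts or only the 2 groups, and 2 in lung with DESeq2, no filter or only the 2 groups. With ABT-737 against vehicle it became 1 in liver without the filter and 1 in lung with DESeq2, no filter or the replicate block. With ABT-737 against young it became 2 in kidney with DESeq2 or no filter, 1 in liver without the filter and 2 there with only the 2 groups, and 3 in place of 2 in skin with DESeq2 or no filter. For the lung to liver difference of the ABT-737 effect it became 1 with DESeq2. The causes were not tested.

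With each library left out, the number called with age ranged from 1 to 3 in kidney, 0 to 2 in liver, 1 to 2 in lung and 0 to 4 in skin. With ABT-737 against vehicle it ranged from 0 to 2, 0 to 1, 0 to 1 and 0 to 0, and with ABT-737 against young from 0 to 2, 0 to 1, 0 to 1 and 0 to 3 in the same order of tissues. Between young lung and kidney it ranged from 6 to 7. Of these fold changes, 863 kept direction and side, 15 came to pass, 42 no longer passed and 34 changed sign. The signs that changed with age were those of Igfbp4 (-0.12 to 0.082), Igfbp5 (-0.25 to 0.16) and Igfbp7 (-0.045 to 0.15) in kidney, Igfbp4 (-0.12 to 0.27) and Igfbp7 (-0.28 to 0.26) in liver, Igfbp4 in lung (-0.38 to 0.12) and Igfbp6 in skin (-0.022 to 1.08). With ABT-737 against vehicle they were Igfbp5 (-0.064 to 0.34), Igfbp6 (-0.41 to 1.10) and Igfbp7 (-0.063 to 0.13) in kidney, Igfbp1 in liver (-1.53 to 0.27), Igfbp2 (-0.39 to 0.59), Igfbp3 (-0.21 to 0.32) and Igfbp4 (-0.62 to 0.78) in lung, and Igfbp3 (-0.64 to 0.51), Igfbp5 (-0.40 to 0.18) and Igfbp6 (-0.48 to 0.065) in skin. With ABT-737 against young they were Igfbp5 in kidney (-0.062 to 0.20), Igfbp2 in liver (-0.34 to 0.10), Igfbp4 (-0.71 to 0.70), Igfbp6 (-0.64 to 0.20) and Igfbp7 (-0.46 to 0.045) in lung and Igfbp6 in skin (-0.23 to 0.86).

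The replicate block gave lung Igfbp5 1.67 with an adjusted p of 0.0442 and changed no other call of a member. Outside lung the numbers were not taken to pair the libraries, with correlations of -0.32, -0.32 and 0.079 in kidney, -0.037, 0.16 and -0.040 in liver and -0.36, -0.58 and 0.47 in skin. Other scalings moved the median gene by at most 0.081 (log2) within a tissue, and between young tissues by up to 0.18 with DESeq2 and 0.78 with total counts. Liver had the fewest counts (223957 in the shallowest library), which left Igfbp5 and Igfbp6 there untested, and 3 or 4 libraries a group limit all of these tests.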
